A study of Mus musculus with 48 samples.

Results

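Postnatal maturation of the control cortex was followed by comparing 3 libraries of Ctrl mouse cortex at postnatal day 45 (P45) with 3 at postnatal day 1 (P1). Expression is given in FPKM, a fragment count divided by gene length and library size. Of 54100 genes in the table, 20907 had a mean of at least 0.5 FPKM over these 6 libraries, and 14370 of them moved in 1 direction both within libraries 1 and 2 and within library 3, 6626 upward and 7744 downward. That shared direction is how the genes were chosen and is no finding. Another 4561 genes moved in opposite directions in the 2 sets of libraries and 1976 had no difference in at least 1 set. The 3 genes just inside the filter were Gm22208 and Dnaic2 with means of 0.5001 FPKM and Mipep-ps with 0.5002, and just outside were Agmo and AC109261.1 with 0.4999 and AC136921.2 with 0.4998.

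All libraries were made from total RNA of mouse cortex, with no treatment labelled for these groups. Besides the Ctrl cortex at P1 and P45, 2 Ctrl libraries each at P7 and P14 and 3 at P21 gave levels in between, and 3 mG-cKO libraries at each of P1 and P45 gave the comparison in another genotype. The labels name the genotypes as Ctrl and mG-cKO without giving the alleles, the Cre driver or the gene removed, and they do not state strain or sex. They also do not say that the libraries of a group came from separate animals, so the p-values measure the spread between these libraries, which may in part be technical.

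At birth the mouse cortex still receives newborn neurons, its axons are extending, and most glia are immature. Over the following weeks oligodendrocytes wrap axons in myelin, astrocytes and microglia acquire their adult transcripts, synapses form and are pruned, and receptor and channel subunits switch from early to late forms. Fast-spiking inhibitory neurons, which contain parvalbumin, mature late and become surrounded by perineuronal nets. In bulk tissue a lower level of a gene can mean fewer cells of a type or less RNA per cell, and these cannot be told apart here.

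The 6 libraries were not alike within an age. Low values in libraries 1 and 2 came in whole-fragment steps for 99.6% to 99.7% of the values (within 0.05 fragments), which gave 21600000 and 19000000 fragments at P1 and 17200000 in each at P45. In library 3 of both ages 24.8% and 24.2% came in such steps, and the depth is unknown. P45 libraries 1 and 2 held 20521 and 21130 FPKM of Rn7sk, an abundant noncoding RNA without a poly(A) tail, against at most 5.14 FPKM in the other 4, and 75.1% and 74.2% of their FPKM lay in protein-coding genes against 90.2% to 92.1%. They also listed 19088 and 19137 genes at 1 FPKM or more against 14088 to 14501. Xist, transcribed from the inactive X chromosome of females, was at 129 and 76.8 FPKM in P1 libraries 1 and 3 and at most 0.0347 in the other 4, and the Y-linked gene Ddx3y was at 7.11 to 13.5 FPKM in those 4, so P1 held both sexes and P45 only libraries with the male pattern. The part of these differences in the age comparison was not tested beyond the values given with each result.

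Mobp and Pvalb rose and Cd24a fell, each without overlap between ages; the 3 genes are markers of myelin, fast-spiking neurons and newborn neurons. Mobp encodes a basic protein of oligodendrocyte myelin and lies on chromosome 9 (120149707 to 120181484, GRCm38/mm10). It was at 0.0136, 0.00786 and 0.0651 FPKM in P1 libraries 1, 2 and 3 and at 83.6, 63.9 and 232 FPKM in P45 libraries 1, 2 and 3. Every P45 library stood far above every P1 library, with library 3 the highest at both ages. On the scale used for all tests, log2(FPKM + 1), which understates changes of low genes, Mobp rose by 6.72 (SE 0.49, adjusted p = 0.00184, limma with Benjamini-Hochberg adjustment over all 20907 genes). Pvalb, the calcium-binding protein parvalbumin (chromosome 15, 78191114 to 78206400), was at 0.0448, 0.0517 and 0.0473 FPKM at P1 and 22.2, 17.2 and 28.8 FPKM at P45. The gene was near zero in every P1 library and plain in every P45 library, a rise of 4.47 (SE 0.21, adjusted p = 8.4e-04). Cd24a, a surface glycoprotein of newborn neurons (chromosome 10, 43578284 to 43584265), went the other way, from 294, 262 and 397 FPKM to 1.67, 2.09 and 3.94 FPKM. Its groups did not overlap and it fell by 6.51 (SE 0.30, adjusted p = 8.4e-04), the largest fall among all genes tested.

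The promoters of Mobp and Pvalb are shown because both genes went from near zero at P1 to plain expression at P45. Each window runs from 250 bases before to 50 after the gene's start (RefSeq, GRCm38.p6), chr9:120149492-120149791 on the plus strand for Mobp and chr15:78206351-78206650 on the minus strand for Pvalb, and capitals mark each CG dinucleotide.
Mobp: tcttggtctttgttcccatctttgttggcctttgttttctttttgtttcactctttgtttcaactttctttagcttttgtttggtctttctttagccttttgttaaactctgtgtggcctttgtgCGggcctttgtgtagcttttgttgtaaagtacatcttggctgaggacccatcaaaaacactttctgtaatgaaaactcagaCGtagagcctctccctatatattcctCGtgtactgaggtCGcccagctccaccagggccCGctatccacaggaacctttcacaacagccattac
Pvalb: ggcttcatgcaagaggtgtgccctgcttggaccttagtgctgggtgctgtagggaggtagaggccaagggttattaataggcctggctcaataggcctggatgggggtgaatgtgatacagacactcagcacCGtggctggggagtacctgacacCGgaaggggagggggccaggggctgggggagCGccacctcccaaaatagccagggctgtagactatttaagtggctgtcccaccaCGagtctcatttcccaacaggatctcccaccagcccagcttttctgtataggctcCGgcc
Both windows hold 5 CG dinucleotides, against a median of 7 in all 32851 promoter windows of the table and 21 in the 10779 windows that matched a tested protein-coding gene.

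**Figure D1:**
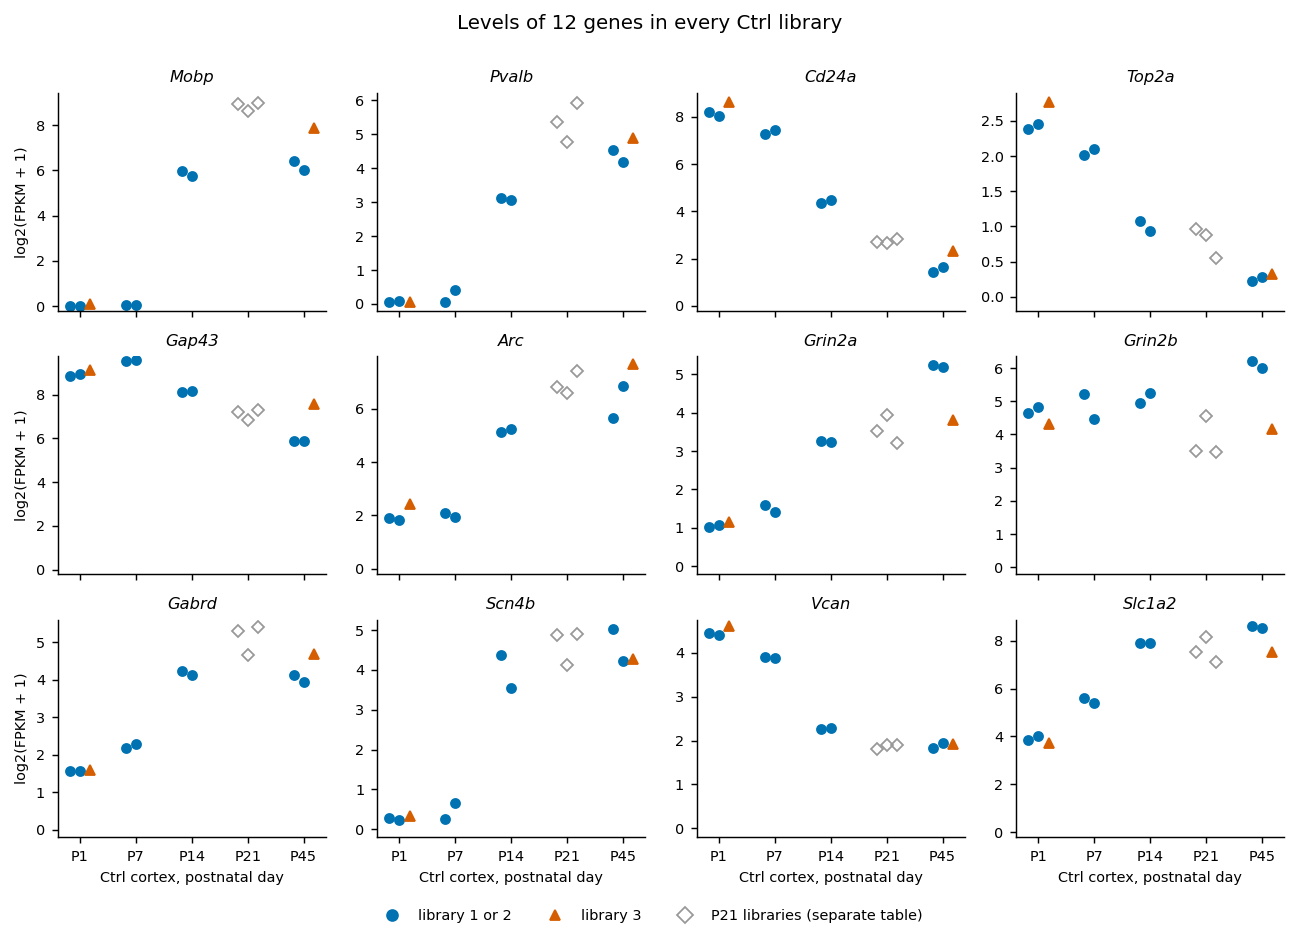
Levels of 12 genes, as log2(FPKM + 1), in every Ctrl library by postnatal day; circles are libraries 1 and 2, triangles library 3, and open diamonds the P21 libraries, which come from a separately normalized table. Mobp, Pvalb and Scn4b are near 0 at P1 and P7 and high from P14, Cd24a and Top2a fall stepwise, and the P45 triangle lies below both circles for Grin2a, Grin2b and Slc1a2.

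Over all genes, 3260 of 20907 (15.6%) passed an adjusted p of 0.05, of which 1499 (7.17%) rose and 1761 (8.42%) fell. Among them 1139 rose and 1242 fell by more than 1 on the log2 scale, and 14 rose and 16 fell by more than 4. All 3260 belong to the 14370 genes and had no overlap between the groups, while 3654 genes (17.5%) were higher and 4163 (19.9%) lower without overlap whether or not they passed. Direction, overlap and test were read from the same libraries. A shared direction or lack of overlap therefore adds no support to a call, here or for the single genes named. With the library number as a block 7065 genes (33.8%) passed, 2757 (13.2%) up and 4308 (20.6%) down, including 3185 of the 3260. Libraries 1 and 2 correlated between ages about as well across numbers as within them, so the block is given as an alternative only. The median difference of all genes was 0.09 as deposited, -0.10 after scaling libraries to a common median, -0.11 after quantile normalization and 0.25 after scaling to the same protein-coding sum. The split moved with it, to 965 rising and 2034 falling genes with a common median. Without P1 library 1 the count was 768 and without P1 library 2 it was 921. It was 1335 without P45 library 1, 1297 without P45 library 2 and 10483 without P45 library 3.

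**Figure D2:**
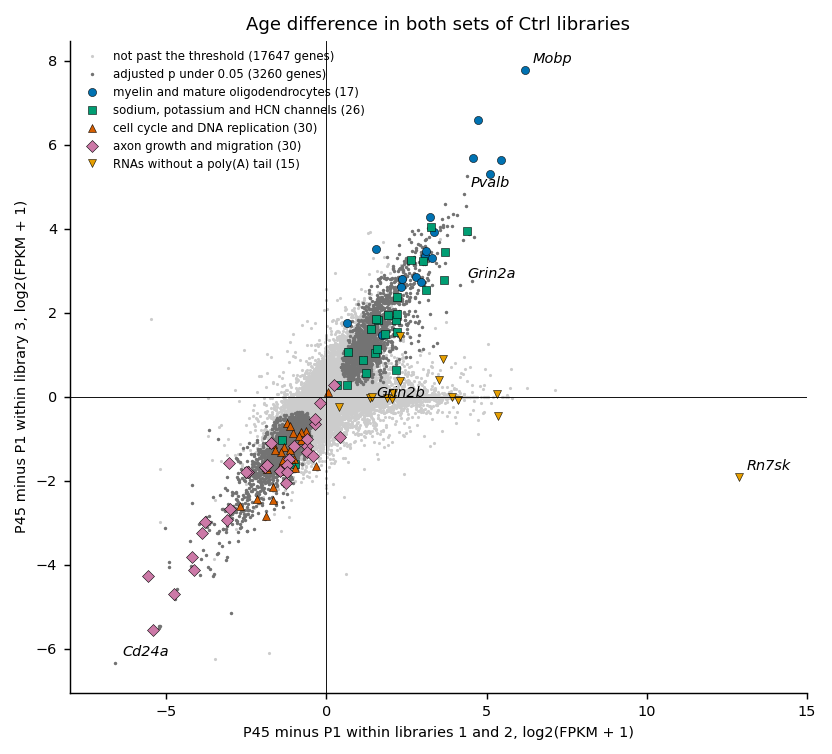
Difference between P45 and P1 within libraries 1 and 2 (horizontal) and within library 3 (vertical), on the log2(FPKM + 1) scale, 1 point per tested gene, with 5 gene lists in colour. The 17 myelin genes lie in the upper right, most axon growth genes in the lower left, and RNAs without a poly(A) tail spread along the horizontal axis, with Rn7sk at its far end.

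Myelin genes rose together. Of 17 tested genes of myelin and mature oligodendrocytes 15 rose and none fell, with a median of 3.23 against 0.09 for all genes. Beside the counts of this and every later list stand 7.17% of all genes rising and 8.42% falling. With the block these shares are 13.2% and 20.6%. Where the share of a list is near these, its count says nothing about the list. Mal, a raft-associated myelin proteolipid, went from 0.521, 0.678 and 0.404 FPKM at P1 to 59.6, 48.3 and 54.4 FPKM at P45, with the 3 P45 libraries close together and a rise of 5.16 (SE 0.15, adjusted p = 2.8e-04). Mbp, which compacts the myelin sheath, was more uneven, at 5.7, 5.38 and 11.8 FPKM and then 202, 145 and 1240 FPKM. It rose by 5.34 (SE 0.86, adjusted p = 0.0141), and the call was lost without P1 library 1 or P1 library 2. Mag, on the inner myelin membrane facing the axon, rose by 4.94 (SE 0.45, adjusted p = 0.00291). The 2 list members that did not pass were Mog, a protein of the outermost myelin layer, with a difference of 1.02 (adjusted p = 0.203), and the iron carrier Trf with 2.20 (adjusted p = 0.219, or 0.0364 with the block).

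Of 13 tested oligodendrocyte precursor genes 4 rose and 3 fell, or 5 and 1 with a common protein-coding sum. The median was 0.02 and turned to -0.18 with a common median. The risers were Bcas1, Enpp6 and Neu4, known from newly forming oligodendrocytes, and Tnr, the matrix protein tenascin-R. Neu4 rose by 1.31 (SE 0.19, adjusted p = 0.00978), lost without library 1 or 2 of either age and with quantile normalization (0.68, adjusted p = 0.157), and Tnr by 0.79 (SE 0.19, adjusted p = 0.0452). Bcas1 went from 2.13, 1.75 and 3.43 FPKM to 25.3, 20 and 51.3 FPKM, above P1 in each P45 library, and rose by 3.19 (SE 0.39, adjusted p = 0.00657). Enpp6, an enzyme of choline metabolism, rose by 1.47 (SE 0.19, adjusted p = 0.00721), although this was lost without P1 library 1 or 2 or P45 library 1 and with quantile normalization (0.87, adjusted p = 0.0806). The genes that fell were Pdgfra, the growth factor receptor of precursors, Olig2, a lineage transcription factor, and the receptor phosphatase Ptprz1. Olig2 was at 17.5, 15 and 18 FPKM at P1 and at 7.89, 9.21 and 11.5 FPKM at P45. Its groups were separate by a narrow margin, it fell by 0.77 (SE 0.18, adjusted p = 0.0418), and Pdgfra fell by 0.56 (SE 0.14, adjusted p = 0.0467). For Tnr, Pdgfra, Olig2 and Ptprz1 the call was lost without any 1 library other than P45 library 3, and without the filter, for all of these but Ptprz1 with a common protein-coding sum, for Tnr and Pdgfra with quantile normalization, and for Tnr with a common median.

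Most genes of dividing cells and neural progenitors fell. Of 30 cell cycle and DNA replication genes 24 fell and none rose (median -1.32), and of 22 genes of neural progenitors and neuroblasts 17 fell and none rose (median -1.82). Rrm2, a subunit of ribonucleotide reductase that makes DNA precursors, went from 8.33, 9.11 and 8.29 FPKM to 0.593, 0.413 and 0.535 FPKM. The P1 libraries were close together, as were those at P45, and Rrm2 fell by 2.66 (SE 0.15, adjusted p = 9.3e-04). Top2a, a topoisomerase that untangles replicated DNA, went from 4.22, 4.49 and 5.81 to 0.17, 0.21 and 0.254 FPKM, without overlap, and fell by 2.26 (SE 0.19, adjusted p = 0.00226). The 6 that did not pass included the cyclins Ccnd1, with a difference of 0.07 (adjusted p = 0.89), and Ccnd2 with -0.70 (adjusted p = 0.0692, or 0.00938 with the block).

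Among the progenitor and neuroblast genes, Igfbpl1, a secreted insulin-like growth factor binding protein relative, went from 52.5, 41.6 and 55.9 FPKM to 0.331, 0.229 and 0.251 FPKM. Every P45 library was below 1 FPKM, and the gene fell by 5.32 (SE 0.16, adjusted p = 2.8e-04). Sox4 and Sox11, transcription factors of newborn neurons, fell by 3.78 and 3.74 (adjusted p = 0.00567 and 0.00182), and Eomes, which marks intermediate progenitors, fell by 1.57 (adjusted p = 0.0072). Sox2, which astrocytes keep into adulthood, fell by 0.83 (adjusted p = 0.017), lost without library 1 or 2 of either age, with a common protein-coding sum and with quantile normalization. Fabp7, the fatty acid binding protein of radial glia, went from a mean of 289 (SD 50.4) to 11.2 (SD 2.66) FPKM and fell by 4.58 (SE 0.25, adjusted p = 9.3e-04).

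The promoters of 2 falling cell cycle genes are shown with 2 motifs known from genes of the later cell cycle: CCAAT, the box bound by NF-Y, and TTTGAA, the core of the cell cycle gene homology region. The windows are chr11:99024140-99024439 for Top2a and chr10:69352863-69353162 for Cdk1, both on the minus strand (RefSeq, GRCm38.p6), and capitals mark each CCAAT or its reverse complement ATTGG and each TTTGAA or TTCAAA.
Top2a: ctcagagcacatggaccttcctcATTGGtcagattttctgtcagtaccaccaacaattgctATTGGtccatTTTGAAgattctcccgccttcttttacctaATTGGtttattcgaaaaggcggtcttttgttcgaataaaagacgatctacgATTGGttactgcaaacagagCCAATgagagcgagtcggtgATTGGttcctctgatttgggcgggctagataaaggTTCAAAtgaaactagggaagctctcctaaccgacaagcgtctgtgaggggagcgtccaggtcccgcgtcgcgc
Cdk1: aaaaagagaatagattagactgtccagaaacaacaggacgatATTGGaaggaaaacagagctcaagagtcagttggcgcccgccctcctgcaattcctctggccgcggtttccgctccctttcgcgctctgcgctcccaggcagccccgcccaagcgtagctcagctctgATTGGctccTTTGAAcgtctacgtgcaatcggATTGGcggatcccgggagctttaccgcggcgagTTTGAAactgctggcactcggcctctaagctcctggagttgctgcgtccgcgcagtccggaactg
The Top2a window holds 6 CCAAT and 2 TTTGAA matches and that of Cdk1, the kinase that starts mitosis, 3 and 2. Cdk1 fell by 1.28 (SE 0.20, adjusted p = 0.0117), lost without library 1 or 2 of either age. In both windows no match of one motif shares a base with the other. Of the 30 cell cycle genes 25 had a window, and 22 of them (88%) held CCAAT against 37.4% of all 32851 promoters. TTTGAA was in 12 (48%) against 17.9%, and both motifs were in 12 (48%) against 6.95%. In the 10779 windows that matched a tested protein-coding gene, 38% held CCAAT and 11.2% held TTTGAA. Among the protein-coding genes that fell, these shares were 40% and 13.3%. The share with both motifs was taken over all promoters only. A match describes the letters of the window and is not evidence of binding.

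Of 30 genes of axon growth and migration 20 fell and none rose (median -1.53). Dpysl3, a collapsin response mediator that bundles actin in growth cones, went from 485, 521 and 631 FPKM to 11.5, 10.6 and 12.5 FPKM. It fell by 5.44 (SE 0.20, adjusted p = 4.0e-04), and its P45 libraries were nearly equal. Dcx, the microtubule protein doublecortin of migrating neurons, went from 144, 145 and 119 to 7.45, 7.13 and 5.85 FPKM, without overlap, and fell by 4.13 (SE 0.18, adjusted p = 6.4e-04). Tubb2b, a tubulin of young neurons, was at 1261, 1203 and 1339 FPKM and then at 24, 26.4 and 68.9 FPKM. Library 3 was the highest at both ages, and Tubb2b fell by 5.13 (SE 0.44, adjusted p = 0.00258). Gap43, a growth cone protein, fell by 2.54 (SE 0.50, adjusted p = 0.0261), lost without any 1 library other than P45 library 3. Dclk1, a kinase related to doublecortin, had a difference of 0.26 (adjusted p = 0.617).

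Other genes among the 12 largest falls of protein-coding genes that passed are known from growing neurons and progenitors. St8sia2, the enzyme that adds polysialic acid to the adhesion molecule NCAM, went from 58.8 (SD 2.99) to 0.524 (SD 0.10) FPKM, a fall of 5.29 (SE 0.14). Draxin, a repulsive axon guidance protein, fell by 4.76, Dpysl5, another collapsin response mediator, by 4.72, and Trim67, a ubiquitin ligase, by 5.27. Mex3a, an RNA-binding protein, fell by 4.63, and Zfp57, a zinc finger protein that protects imprints, by 4.62. Their adjusted p lay between 2.6e-04 and 0.00351.

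Of 7 tested fetal RNA-binding genes and let-7 microRNA targets 3 fell and none rose (median -0.78), or 5 with the block. Igf2bp2 and Igf2bp1, which bind and stabilise fetal messenger RNAs, fell by 1.81 (SE 0.26, adjusted p = 0.00892) and 1.41 (SE 0.23, adjusted p = 0.0134), lost for Igf2bp2 without P1 library 1 or 2 and for Igf2bp1 without P1 library 1, P45 library 1 or P45 library 2. Of 16 imprinted growth genes 5 fell and 1 rose (median -0.58), against 8.42% and 7.17% of all genes. With the block 8 fell and 1 rose, against 20.6% and 13.2%. H19, an imprinted noncoding RNA, went from 9.25, 14.4 and 17.9 FPKM to 0.023, 0 and 0.0924 FPKM. No P45 library reached 0.1 FPKM, and H19 fell by 3.79 (SE 0.25, adjusted p = 0.00161). Cdkn1c, an imprinted inhibitor of the cell cycle, fell by 2.51 (SE 0.37, adjusted p = 0.0104), lost without P1 library 1. Peg3, a paternally expressed zinc finger gene, rose by 0.94 (SE 0.19, adjusted p = 0.0252), lost without library 1 or 2 of either age and with a common median.

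Fast-spiking interneuron and perineuronal net genes rose in 8 of 14 cases and fell in 3 (median 1.11). Kcnc2, a fast potassium channel subunit of these cells, went from 4.08, 4.78 and 4.39 to 19.3, 18.8 and 19.9 FPKM, with tight groups at both ages and a rise of 1.91 (SE 0.13, adjusted p = 0.00158). Hapln4, a link protein of perineuronal nets, went from 0.44, 0.618 and 0.509 to 19.2, 18.6 and 35.1 FPKM and rose (adjusted p = 0.00163). Syt2, the synaptotagmin of fast-spiking terminals, rose by 2.35 (SE 0.26, adjusted p = 0.00468). The genes that fell were Lhx6, Vcan and Ncan. Lhx6, a transcription factor of the lineage from the medial ganglionic eminence, fell by 2.08 (SE 0.34, adjusted p = 0.0141), lost without library 1 or 2 of either age. Vcan, the chondroitin sulfate proteoglycan versican of the juvenile matrix, went from 21, 20.1 and 23.5 FPKM to 2.58, 2.85 and 2.8 FPKM. The groups were narrow and far apart, and Vcan fell by 2.59 (SE 0.14, adjusted p = 9.2e-04). Its relative Ncan fell by 0.91 (SE 0.22, adjusted p = 0.0461), lost without any 1 library other than P45 library 3, with a common protein-coding sum, with quantile normalization and without the filter. Bcan differed by 0.36 (adjusted p = 0.457), while the net proteoglycan Acan was below the filter, at a mean of 0.19 and then 0.722 FPKM.

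Of 15 genes of other inhibitory neurons 4 rose and none fell (median 0.30), or 7 and 2 with the block. Lamp5, a membrane protein of neurogliaform cells that pyramidal cells also carry, went from 1.73, 1.95 and 2.65 to 37.6, 30.4 and 67.3 FPKM, far above P1 in each library, and rose by 3.82 (SE 0.32, adjusted p = 0.00251). Vip, a neuropeptide, went from 0.165, 0.0633 and 0.196 to 5.97, 6.04 and 10.8 FPKM, without overlap, and rose by 2.87 (SE 0.26, adjusted p = 0.00279). Gad1 and Gad2, the enzymes that make GABA, differed by 0.76 and 0.58 (adjusted p = 0.213 and 0.168, or 0.0172 and 0.0279 with the block). Sst, the neuropeptide somatostatin, differed by 0.05 (adjusted p = 0.952).

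Most voltage-gated channel genes rose. Of 26 sodium, potassium and HCN channel genes 21 rose and 2 fell (median 1.71). Scn4b, a sodium channel beta subunit that speeds repeated firing, went from 0.206, 0.173 and 0.257 FPKM to 31.5, 17.8 and 18.3 FPKM. All P45 libraries were far above P1, and Scn4b rose by 4.23 (SE 0.25, adjusted p = 0.00111). Scn2b, another beta subunit, went from 4.71, 3.57 and 3.64 to 67.8, 64.5 and 49.7 FPKM and rose by 3.63 (SE 0.19, adjusted p = 9.2e-04). The pore subunit Scn8a of the axon initial segment rose by 1.44 (SE 0.29, adjusted p = 0.027, lost without library 1 or 2 of either age). Slc24a2, a neuronal sodium/calcium-potassium exchanger outside this list, rose by 4.26 (SE 0.26, adjusted p = 0.00124). The 2 that fell were the early forms Scn3a, a pore subunit, and Scn3b, a beta subunit. Scn3a was at 19, 18.8 and 19.7 FPKM and then at 9.2, 8.91 and 5.85 FPKM, with no overlap, and fell by 1.19 (SE 0.20, adjusted p = 0.0145), lost without P1 library 1, P1 library 2 or P45 library 2 and with a common protein-coding sum. Scn3b fell by 1.26 (SE 0.23, adjusted p = 0.0202), lost without any 1 library other than P45 library 3.

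Glutamate receptor genes rose in 9 of 25 cases and fell in 2 (median 0.53), or 14 and 4 with the block. The NMDA receptor subunit Grin2a, which replaces the early subunit Grin2b at many synapses, went from 1.04, 1.11 and 1.23 FPKM to 37.1, 35.7 and 13.1 FPKM. Library 3 had the lowest P45 value yet lay well above P1, and Grin2a rose by 3.67 (SE 0.41, adjusted p = 0.00493). Grin2b was at 24.3, 27.6 and 19.1 FPKM and then at 73.1, 62.4 and 16.8 FPKM. It was higher at P45 in libraries 1 and 2 (1.35) and slightly lower in library 3 (-0.17), so it is not among the 14370 genes (adjusted p = 0.324). Grin2c went from 0.5, 0.599 and 0.555 to 11.3, 9.67 and 11.7 FPKM, far apart, and rose by 2.94 (SE 0.15, adjusted p = 8.7e-04), and Grin2d differed by -0.97 (adjusted p = 0.197, or 0.00717 with the block). Gria3, an AMPA receptor subunit, rose by 2.06 (SE 0.19, adjusted p = 0.00282). The 2 that fell were Cacng4, an auxiliary AMPA receptor subunit, by 2.68 (SE 0.22, adjusted p = 0.00223), and Grin3a, a juvenile NMDA receptor subunit, by 0.76 (SE 0.19, adjusted p = 0.0499), the latter lost without any 1 library other than P45 library 3, with a common protein-coding sum and without the filter.

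Of 19 GABA and glycine receptor and chloride carrier genes 9 rose and 2 fell (median 0.82). Gabrd, the delta subunit of extrasynaptic receptors, went from 1.95, 1.95 and 1.99 FPKM at P1 to 16.4, 14.4 and 24.7 FPKM at P45. The groups were far apart, and Gabrd rose by 2.68 (SE 0.22, adjusted p = 0.00231). Of the alpha subunits named for the young cortex, Gabra5 fell by 0.88 (SE 0.21, adjusted p = 0.0456), lost without any 1 library other than P45 library 3, with a common protein-coding sum and without the filter. Gabra3 rose by 0.82 (SE 0.15, adjusted p = 0.0194), lost without library 1 or 2 of either age and with each of the 3 other scalings, and Gabra2 differed by 0.69 (adjusted p = 0.0826). Glra2, the fetal glycine receptor subunit, fell by 1.86 (SE 0.29, adjusted p = 0.0124), lost without P1 library 1 or 2 or P45 library 1 and with a common protein-coding sum. Slc12a5, the chloride extruder KCC2, went from 25.8, 27.3 and 35 to 92.3, 92.8 and 140 FPKM, without overlap, and rose by 1.83 (SE 0.25, adjusted p = 0.00807), lost without P1 library 1 or 2. Its counterpart Slc12a2, the chloride importer NKCC1, was at 11.6, 12.4 and 6.49 FPKM and then at 19.5, 16.2 and 7.74 FPKM. The groups overlapped, and the gene differed by 0.43 (adjusted p = 0.472).

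Some genes of both sides of the synapse rose, though most members of each list did not pass. Of 22 synaptic vesicle and release genes 9 rose and none fell (median 1.28), or 18 and 1 with the block, and of 22 postsynaptic density and plasticity genes 10 rose and none fell (median 1.36), or 16 with the block. Sv2b, a vesicle glycoprotein, went from 10.2, 10.7 and 11.1 to 74.4, 67.9 and 73.5 FPKM, in tight groups, and rose by 2.64 (SE 0.15, adjusted p = 9.3e-04). Slc17a7, the vesicular glutamate transporter VGLUT1, rose by 3.12 (SE 0.56, adjusted p = 0.0198), lost without library 1 or 2 of either age, and its early counterpart Slc17a6 differed by -0.58 (adjusted p = 0.0578, or 0.0204 with the block). Itpka, an inositol kinase of dendritic spines, went from 4.54, 3.91 and 3.68 to 63.1, 63.8 and 75.9 FPKM, far above P1 in each library, and rose by 3.76 (SE 0.16, adjusted p = 6.1e-04). Icam5, a dendritic adhesion molecule, rose by 2.86 (SE 0.20, adjusted p = 0.00163). Nrgn, a postsynaptic calmodulin-binding protein, was at 159, 164 and 191 and then at 387, 362 and 1113 FPKM, a difference of 1.65 that passed only with the block (adjusted p = 0.0797, or 0.0318 with it).

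Immediate early genes, which neurons transcribe within minutes of activity, rose in 12 of 18 cases with none falling (median 1.75). Arc, which regulates AMPA receptor traffic, was at 2.73, 2.5 and 4.32 FPKM at P1 and at 49, 115 and 204 FPKM at P45. The P45 libraries differed widely among themselves, yet each was above every P1 library, and Arc rose by 4.69 (SE 0.54, adjusted p = 0.00516). Bdnf, the neurotrophin, went from 0.6, 0.658 and 0.587 to 4.07, 3.85 and 4.71 FPKM, in narrow groups, and rose by 1.69 (SE 0.16, adjusted p = 0.00319). The labels give neither the handling nor the time of day of tissue collection, and their part in these genes was not tested.

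Of 20 mature astrocyte genes 10 rose and none fell (median 1.38), or 16 with the block. Slc1a2, the glutamate transporter GLT-1, went from 13.5, 15.4 and 12.1 FPKM to 395, 365 and 182 FPKM. Library 3 had the lowest P45 value, and all were far above P1, a rise of 4.35 (SE 0.34, adjusted p = 0.00219). S100b, a calcium-binding protein of astrocytes and oligodendrocytes, rose by 4.16 (SE 0.21, adjusted p = 8.7e-04) and Kcnj10, the potassium channel of astrocyte endfeet, by 2.26 (SE 0.14, adjusted p = 0.00111). Fam107a, an actin-associated protein of astrocytes and neurons, rose by 4.42 (SE 0.26, adjusted p = 0.00115). Of 18 microglia genes 9 rose and none fell (median 1.17). P2ry12, a nucleotide receptor of resting microglia, went from 2.05, 1.99 and 2.01 to 8.91, 10.7 and 13.4 FPKM, a rise of 1.97 (SE 0.18, adjusted p = 0.00269) between groups that did not overlap, and Tmem119 rose by 2.27 (SE 0.24, adjusted p = 0.004).

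Vascular and meningeal genes included collagens that fell. Of 18 endothelial and pericyte genes 4 rose and 4 fell, with a median of 0.03 that turned to -0.17 with a common median. Slco1a4, a transporter of the blood-brain barrier, went from 0.48, 0.638 and 0.703 to 10.3, 8.64 and 10.1 FPKM and rose by 2.73 (SE 0.15, adjusted p = 9.3e-04), whereas the basement membrane collagen Col4a1 went from 28.1, 30.7 and 31.5 to 9.38, 9.57 and 9.87 FPKM and fell by 1.55 (SE 0.14, adjusted p = 0.00252). Neither pair of groups overlapped. Of 12 meningeal and fibroblast genes 7 fell and none rose (median -0.87), among them the collagen Col3a1 by 2.33 (SE 0.21, adjusted p = 0.00258). The summed FPKM of the meningeal list was 189, 260 and 370 in the P1 libraries and 210, 248 and 802 at P45, red blood cell genes summed to 42.6, 35.6 and 433 and then 53.3, 96.5 and 1081, and genes of other brain regions to 64.8 to 87.8 and then 89.3 to 180. No red blood cell gene of the 5 tested passed, 1 of 11 genes of other brain regions fell and 1 of 3 choroid plexus genes fell. Of all genes 7.17% rose and 8.42% fell. With the block 1 red blood cell gene rose, and 2 genes of other brain regions rose and 2 fell, against 13.2% and 20.6% of all genes. Choroid plexus genes summed to at most 5 FPKM in the 6 libraries, with Ttr at 0.265 to 0.698 FPKM. The part of tissue carried along at dissection in the results was not tested.

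Metabolic genes moved in both directions. Of 22 cholesterol synthesis genes 5 fell and none rose (median -1.01), or 14 and 1 with the block. Mvd, a decarboxylase of the mevalonate pathway, went from 29.4, 28.2 and 25.6 to 6.89, 8.69 and 11.5 FPKM, without overlap, and fell by 1.54 (SE 0.21, adjusted p = 0.0081), lost without P1 library 1 or 2. Of 26 genes of energy metabolism isoforms 6 rose and none fell (median 0.68), or 13 and 1 with the block. Eno2, the neuronal enolase, rose by 2.60 (SE 0.45, adjusted p = 0.0177), lost without P1 library 1, P1 library 2 or P45 library 2. Aldoc, the aldolase of astrocytes, rose by 2.19 (SE 0.32, adjusted p = 0.0106), lost without P1 library 1 or 2.

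Thyroid and steroid hormone and clock genes rose in 15 of 18 cases with none falling (median 1.82). Thrb, a thyroid hormone receptor, went from 1.22, 1.41 and 1.58 to 12.3, 13.4 and 12 FPKM, in narrow groups, and rose (adjusted p = 9.3e-04). Per3, a period gene of the circadian clock, rose by 1.91 (SE 0.14, adjusted p = 0.00163). Cortical layer factors fell in 6 of 18 cases and rose in 1 (median -0.57), or 10 and 3 with the block. Neurod6, a transcription factor of pyramidal neurons, went from 122, 129 and 144 to 17.4, 16.9 and 29.3 FPKM, without overlap, and fell by 2.62 (SE 0.26, adjusted p = 0.00351). The riser was Rasgrf2, an exchange factor of upper layer neurons, by 1.62 (SE 0.26, adjusted p = 0.0133), lost without P1 library 1 or 2 or P45 library 1.

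Of 30 chromatin and DNA methylation genes 7 fell and none rose (median -0.62), or 17 and 1 with the block. Hmgb2, a DNA-bending protein of dividing cells, went from 9.89, 8.55 and 14 to 0.566, 0.572 and 1.2 FPKM, without overlap, and fell by 2.72 (SE 0.25, adjusted p = 0.00284). Uhrf1, which guides the maintenance methyltransferase to replicating DNA, fell by 1.96 (SE 0.23, adjusted p = 0.00516), lost without P1 library 1. Dnmt1, that methyltransferase, fell by 1.29 (SE 0.29, adjusted p = 0.0367), lost without any 1 library other than P45 library 3 and without the filter, while Dnmt3a, which methylates DNA anew, differed by -0.42 (adjusted p = 0.181).

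Since P45 libraries 1 and 2 stand apart, P45 library 3 was also set alone against the 3 P1 libraries, with its spread taken to be that of the P1 libraries. P1 libraries 1 and 2 belong to the other set, so this fit mixes age with the difference between the sets. For example, the median of red blood cell genes was 3.75 in it, against 1.21 within library 3. That of mitochondrially encoded genes was 1.17 against 0.58. The part of the set in its counts was not tested. In that fit 907 of 20907 genes (4.34%) rose and 516 (2.47%) fell, among them 1111 of the 3260. Of the genes that rose, 14 were in the myelin list, 13 in the channel list, 10 among immediate early genes, 8 each among astrocyte and microglia genes, 7 among hormone and clock genes, 6 among postsynaptic genes and 4 among vesicle genes. Of those that fell, 11 were axon growth genes, 8 cell cycle genes and 7 progenitor genes. No meningeal, chromatin, imprinted or fetal RNA-binding gene passed in it. Layer factors were also among the genes that fell, while the median of their list was 0.05 in that fit, against -0.57 with all libraries. With P45 set against P1 inside each set, it was -0.50 within libraries 1 and 2 and -0.72 within library 3.

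**Figure D3:**
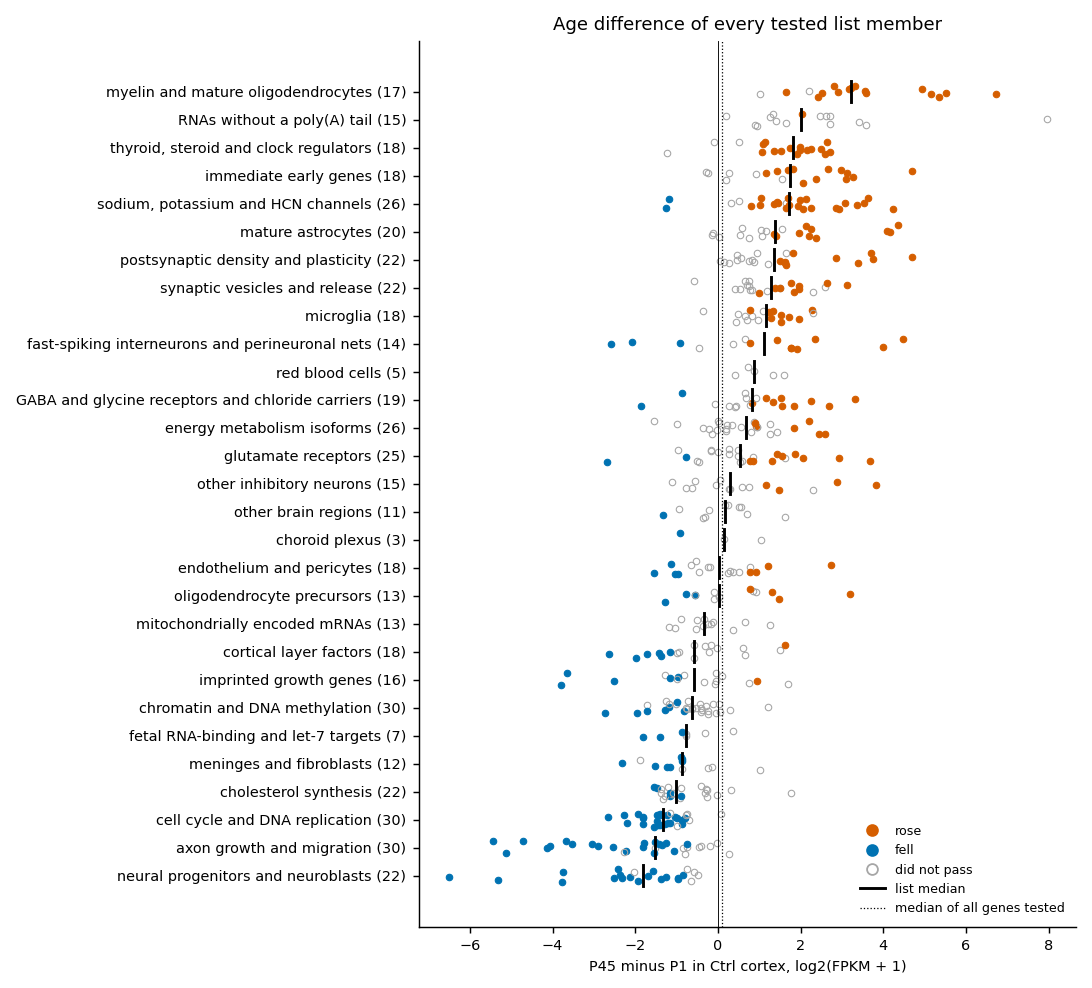
Difference between P45 and P1 in Ctrl cortex, on the log2(FPKM + 1) scale, for each tested member of every list, ordered by the list median (black bar); filled points passed an adjusted p of 0.05, open points did not, and the dotted line is the median of all genes tested. Myelin, with a median of 3.23, is at the top, and neural progenitors and neuroblasts, with -1.82, at the bottom.

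Levels at P7 and P14 in libraries 1 and 2 share the P1 libraries with the P45 comparison and are given as values only. Choroid plexus genes summed to 252 and 251 FPKM in library 2 of P7 and P14, against 4.93 and 8.93 FPKM in library 1. Xist was at 58.6 to 78 FPKM in these 4 libraries, the female pattern, while the P45 libraries had the male one. The part of either in the courses was not tested. The myelin list had a median difference from P1 of 0.34 at P7, 3.06 at P14 and 3.10 at P45 within these libraries. Mobp was at 0.046 and 0.043 FPKM at P7 and 61.9 and 53.7 FPKM at P14, so the step lay between these ages. The progenitor list was already at -0.77 at P7 and at -1.45 at P14 and -1.86 at P45, whereas the axon growth list stood at -0.09, -1.11 and -1.58. Within the latter Gap43 was higher at P7 than at P1, at 753 and 757 FPKM, before 276 and 284 FPKM at P14. Channel genes stood at 0.46, 1.35 and 1.88 and immediate early genes at 0.11, 1.07 and 1.55. Bcas1 was at 29.9 and 29.3 FPKM at P14 and at 25.3 and 20 FPKM in P45 libraries 1 and 2. Enpp6 was at 5.38 and 5.22 FPKM at P14 and at 2.21 and 1.79 FPKM in the same P45 libraries, so both genes had lower FPKM there than at P14. Protein-coding genes held 75.1% and 74.2% of the FPKM in these P45 libraries, against 92.9% in each P14 library. The part of that difference in any course after P14 was not tested. Grin2a continued upward after P14, from 8.54 and 8.4 FPKM to 37.1 and 35.7 FPKM in libraries 1 and 2. In the separately normalized P21 table Mobp was at 460 (SD 61.2) FPKM, Pvalb at 42 (SD 16.7) and Cd24a at 5.69 (SD 0.456) in 3 Ctrl libraries.

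**Figure D4:**
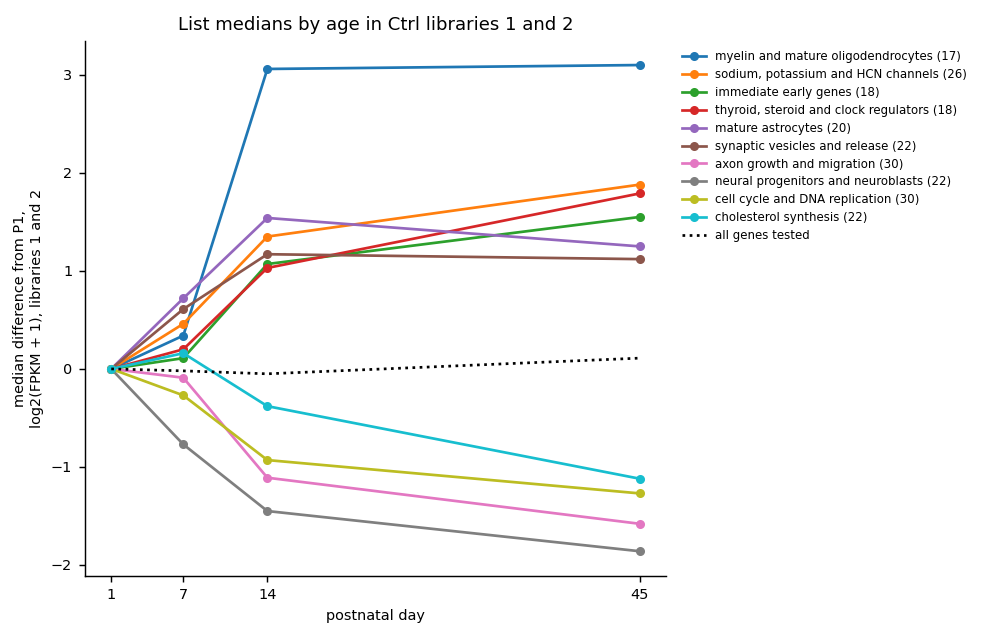
Median difference from P1, on the log2(FPKM + 1) scale, of 10 gene lists and of all tested genes in Ctrl libraries 1 and 2 at postnatal days 7, 14 and 45. The myelin median steps from 0.34 at day 7 to 3.06 at day 14 and is 3.10 at day 45, while the progenitor median is -0.77 at day 7 and -1.86 at day 45.

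The share of genes that rose was larger among long genes than among short ones. Of protein-coding genes spanning under 10 kb 6.93% rose and 13.2% fell, and of those spanning 300 kb or more 23% rose and 3.91% fell, with 3448 and 512 genes in these classes. The classes of 10 to 30, 30 to 100 and 100 to 300 kb lay between, with 7.17%, 10.7% and 16.1% rising. From the shortest to the longest class the median difference was -0.32, -0.28, -0.02, 0.26 and 0.60 within libraries 1 and 2. Within library 3 it was -0.09, -0.15, -0.10, -0.01 and 0.14, and at P14 in libraries 1 and 2 it was -0.05, -0.12, -0.08, 0.03 and 0.22, so in both the lowest median was in the 10 to 30 kb class. Genes higher in libraries 1 and 2 and lower in library 3 made up 5.68% of the shortest class and 20.9% of the longest. P45 libraries 1 and 2 are also those with the lower protein-coding share, and the part of that difference in the pattern was not tested.

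**Figure D5:**
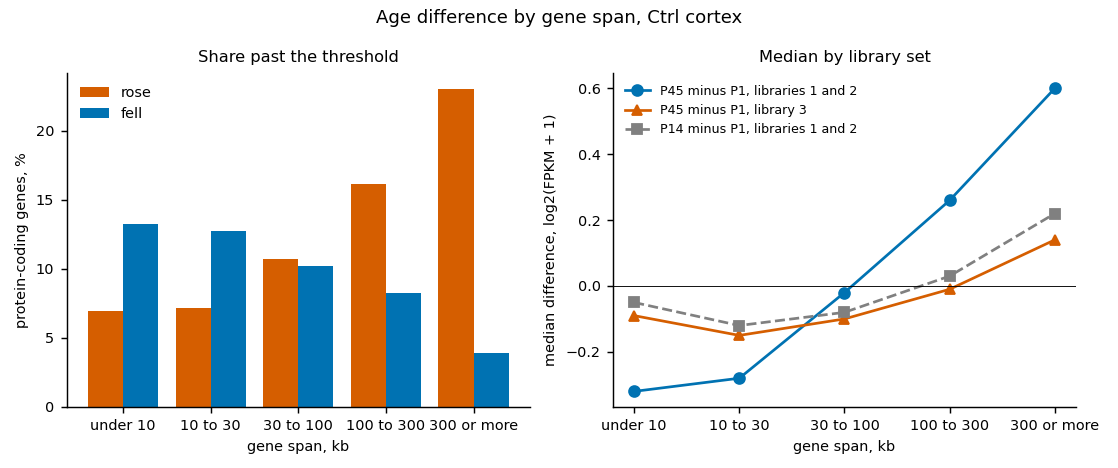
Left, percentage of protein-coding genes that rose or fell between P1 and P45 by the length of the gene on the genome; right, median difference on the log2(FPKM + 1) scale for the 2 sets of libraries and for P14. The share that rose goes from 6.93% under 10 kb to 23% at 300 kb or more, and the median goes from -0.32 to 0.60 in libraries 1 and 2, while in library 3 it is lowest at 10 to 30 kb (-0.15) and highest at 300 kb or more (0.14).

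The age effect was tested for a difference between genotypes in the 12 Ctrl and mG-cKO libraries of P1 and P45. Of 20961 genes 11 (0.0525%) passed, 4 with a more positive and 7 with a more negative age effect in mG-cKO, while 329 had an unadjusted p under 0.05. With the block 54 passed, with a pseudocount of 0.1 none did, and with a common protein-coding sum 1 did. Without any 1 of P1 libraries 1 and 3 or P45 libraries 1 and 2 of Ctrl, or libraries 1 and 2 of either age of mG-cKO, none passed, against 2 without Ctrl P1 library 2, 12 without Ctrl P45 library 3, 5 without mG-cKO P1 library 3 and 22 without mG-cKO P45 library 3. The 7 with a more negative age effect included Cldn11, which forms the tight junctions of myelin, Mal, and Ermn, a cytoskeletal protein of mature oligodendrocytes. Cldn11 went from 4.51 (SD 1.67) to 62.1 (SD 7.56) FPKM in Ctrl and from 7.32 (SD 1.67) to 13.1 (SD 1.13) FPKM in mG-cKO, an age effect 2.77 lower on the log2 scale (SE 0.31, adjusted p = 0.02). The genotype difference was -2.42 for Mobp, -0.83 for Pvalb and 0.27 for Cd24a, each with an adjusted p of 1.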

How the data were processed

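RNA from mouse cortex was extracted with TRIzol and made into libraries with an NEB Next Ultra kit, per the labels' protocols; selection for poly(A) RNA is not given in the sources used here. Reads were handled with Trim Galore 0.6.5, STAR 2.5.3a and featureCounts 2.0.4 on mm10, per the submitters' processing notes, and the authors deposited FPKM per gene. Their roles in each library are not stated, and the depth could be read back only for libraries 1 and 2 of each age. The age table holds 54100 genes in 20 libraries, out of 48 samples in the labels. All gene IDs (100%) matched GENCODE M21, and 92 symbols are listed more than once. Replicate 3 of P7 and P14 was not analysed here. P21 comes from a table normalized separately and entered no test.

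Genes whose mean reached 0.5 FPKM in the 6 Ctrl libraries were tested with limma 3.58.1 (trended, robust; statmod 1.5.0, R 4.3.3) on log2(FPKM + 1) as P45 minus P1, and the genotype difference as the interaction in the 12 libraries. Calls used a Benjamini-Hochberg adjusted p of 0.05. Only samples labelled Ctrl or mG-cKO entered. The fit was tested on simulated data with independent noise of the spread at P1. These held no difference between sets of libraries, so the simulation does not bear on that difference. Tables were made with pandas 2.3.3 and numpy 2.4.6 under Python 3.11.15, and figures with matplotlib 3.10.9. Without counts for every library no count model was run.

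Deviations from the age means correlated at 0.576, 0.548 and 0.662 between P1 and P45 libraries of the same number. The main fit did not pair libraries, and the number served as a block in an alternative only. Libraries 1 and 2 correlated as well across numbers (0.562 and 0.561), so the number does not pair them. Deviations cancel within an age, so the opposite sign of library 3 (-0.631 to -0.589) follows from the other values. The shared factor separates libraries 1 and 2 from 3. Genes to name were taken from the 3 markers, the 12 largest called rises and falls among protein-coding genes whose groups do not overlap, for each list the 2 called genes of lowest adjusted p per direction, and both members of preset pairs of early and late forms. Not every gene of this rule is printed, and other members of the lists are named too, both chosen once their values were known. The members and lists were chosen with earlier results of these data known. Other pseudocounts, filters, scalings, a term for the set of libraries, the replicate block, larger fits and fits without each library were alternatives. A comparison of P45 library 3 alone with the P1 libraries, and the common median and quantile scalings for the lists, were added after seeing the data.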

Additional observations from a re-analysis of the deposited data

Results flagged for a closer look

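For 7 protein-coding genes the change from P1 to P45 differed between mG-cKO and Ctrl cortex by the test of that difference. On the log2 scale the difference, mG-cKO minus Ctrl, was -2.77 for Cldn11 (adjusted p = 0.02). Mal (-2.12), Ermn (-2.09), Tmem88b (-1.87) and Npnt (-1.38) were also negative, with adjusted p of 0.02 for Mal, 0.0327 for Ermn, 0.0319 for Tmem88b and 0.0286 for Npnt. C4b, a complement component, differed by 2.10 and Tmc1, a mechanotransduction channel gene, by 1.93, both with an adjusted p of 0.02. C4b went from 0.458 (SD 0.086) to 2.7 (SD 0.326) FPKM in Ctrl and from 1.26 (SD 0.0884) to 24 (SD 5.82) FPKM in mG-cKO. Mal went from 0.534 (SD 0.138) to 54.1 (SD 5.67) FPKM in Ctrl and reached 10.5 (SD 1.82) FPKM at P45 in mG-cKO. The other 4 of the 11 genes are noncoding, with differences of 2.94 for Stk19-ps1, -3.08 for 2310043L19Rik, -1.77 for 4833418N02Rik and 1.63 for Gm37091. The mean of 2310043L19Rik went from 0.115 to 0.0271 FPKM in Ctrl and from 40.4 to 3.53 FPKM in mG-cKO. That of 4833418N02Rik went from 1.74 to 0.688 FPKM in Ctrl and from 10.3 to 1.04 FPKM in mG-cKO. In Ctrl, Gm37091 was at 0 and 0.00219 FPKM and Tmc1 at 0.0229 and 0.0651 FPKM, near zero at both ages. In mG-cKO Gm37091 went from 0.0776 to 2.35 FPKM and Tmc1 from 0.0403 to 3.13 FPKM. Stk19-ps1 was at 0.0846 and 0 FPKM in Ctrl and at 0.775 and 11.7 FPKM in mG-cKO. These genes met the filter only through mG-cKO at P45, and 2310043L19Rik only through mG-cKO. Their entry into the test thus rested on the groups where they are high. With a pseudocount of 0.1 limma called no gene.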

How the results depend on the processing

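The count of 3260 genes that passed, 1499 higher and 1761 lower, moved by more than 1.5 times in several fits. It was 7065 with the replicate block (2757 and 4308), 9393 with a term for the set of libraries (3912 and 5481), 5989 with the 10 Ctrl libraries (2686 and 3303), 7456 with all 20 libraries (3594 and 3862) and 15510 with libraries 1 and 2 only (8688 and 6822). P45 library 3 alone against the P1 libraries gave 1423 (907 and 516). A common median gave 965 higher and 2034 lower. Without 1 library the count was 768 to 10483 (399 to 6610 higher, 369 to 3873 lower), and 750 of the 3260 passed in all 6 of these fits. None of the 3260 changed direction in any fit. Their groups did not overlap, which fixes the direction in every fit that does not rescale the libraries. Only the fits with another scaling could have changed it. The replicate block changed no other call among the named genes than those given with it. Of 86 named genes that passed, 55 held in all 6 fits without 1 library, 76 with a common protein-coding sum, 83 with a common median, 79 with quantile normalization, 78 without the filter and 55 with P45 library 3 alone. With a common protein-coding sum the list counts that moved by more than 1.5 times included 5 rising glutamate receptor, 16 vesicle and 11 energy genes, and 1 precursor, 4 meningeal, 3 imprinted and 3 layer genes that fell. Genes that did not pass changed sign as follows: Grin2b -0.46 and Slc12a2 -0.31 with P45 library 3 alone, Ccnd1 -0.13, Sst -0.15 and Ttr -0.05 with a common median, Ttr -0.31 with quantile normalization, and Sst -0.36 with libraries 1 and 2 only. Without 1 library the values ran from -0.16 to 0.27 for Ccnd1, -0.46 to 0.31 for Sst and -0.00 to 0.52 for Dclk1. The genotype difference (11 genes, 4 and 7) gave 54 with the replicate block (16 and 38), 18 without the filter (11 and 7), 1 with a common protein-coding sum (1 and 0), 0 with a pseudocount of 0.1 (0 and 0), and 0 to 22 without 1 library (0 to 14 and 0 to 8). The causes were not tested. Depth is unknown for library 3 of each age, so no floor can be given for its low values.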

Other observations

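Gene types differed between the 2 sets of libraries. Protein-coding genes had a median difference of -0.13 within libraries 1 and 2 and -0.10 within library 3. Antisense genes had 0.95 and 0.00, processed pseudogenes 0.85 and 0.00, and small nucleolar RNAs 1.81 and 0.00. Of 13919 tested protein-coding genes 80.8% moved in 1 direction in both sets, against 23.2% of 479 small nucleolar RNAs. The 15 tested RNAs without a poly(A) tail had a median of 2.31 within libraries 1 and 2 and 0.00 within library 3. The filter took the mean of all 6 libraries, so a gene high only in P45 libraries 1 and 2 could enter through them. For such genes a rise in that set and little difference in library 3 follow in part from the filter. The medians and shares by gene type are therefore given as values only. The 13 genes encoded in mitochondria had a median of -0.83 within libraries 1 and 2 and 0.58 within library 3, and none passed the limma test, or 1 with the block.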
